A study of Mus musculus with 12 samples.

Results

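The genes described here are Rtp1, Rtp2, Reep1, Ric8b, Omp and Stoml3, which serve the transport of odorant receptors to the cell surface, the folding of the olfactory G protein and the mature state of the olfactory sensory neuron. They were chosen by symbol, each matched 1 row, and they are 6 of the 44930 genes in the deposited table. An odorant receptor made in the endoplasmic reticulum needs accessory proteins to reach the ciliary membrane of the neuron. There it couples to a heterotrimeric G protein that activates adenylyl cyclase and opens a cyclic nucleotide-gated channel. Neurons that express this machinery at full strength are recognised as mature by their olfactory marker protein.

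Total RNA of the olfactory mucosa was sequenced in 6 wildtype and 6 eB deletion mice, all males of the mixed strain 129S6;C57BL/6J at postnatal day 30. The deletion takes out eB, an element that the study names as an enhancer acting on class I receptors, over 1155 bp of chromosome 7 (102847692 to 102848846). The zygosity of the deletion is not stated in the sources used here. The study compared the genotypes. For the genes described here the questions were whether their levels differed between the genotypes and whether they followed the total amount of odorant receptor RNA in each animal.

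The libraries held 13152662 to 23059835 reads on genes. Odorant receptor genes, the 1380 genes whose symbols start with Olfr, took 0.668% to 0.818% of them. Gm10800, a predicted gene, made up 11.0% of the reads of wildtype 2, 2.38% of those of eB deletion 4, 0.554% for eB deletion 1 and 0.329% for wildtype 5, against at most 0.00514% for the 8 other animals. These 4, all above 0.1%, are called the Gm10800-rich libraries, and the differences and relations of the members are also given without them. The markers of the labelled tissue were present, as all 14 markers of mature sensory neurons passed the filter on low values. Because the mucosa was sequenced in bulk, fewer neurons and less RNA per neuron cannot be told apart in any value below.

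All 6 genes are protein coding and are annotated on GRCm38 by GENCODE M21. Rtp1 (16, 23429133 to 23433960, plus strand) and Rtp2 (16, 23925548 to 23932394, minus strand) lie on the same chromosome, Reep1 on chromosome 6 (71707561 to 71810710, plus strand) and Ric8b on chromosome 10 (84917616 to 85018337, plus strand). Stoml3 lies on chromosome 3 (53488653 to 53508502, plus strand). Omp (7, 98143359 to 98145502, minus strand) is on the chromosome of the deletion and lies inside the span of Capn5 (98121559 to 98178274) on the same strand, sharing 0 exonic bases with it. Capn5 had a mean normalized count of 247 ± 15.3 in the wildtype group and 227 ± 14.7 in the deletion group (SD over 6 animals), far below Omp. The span of Reep1 holds 2 unclassified genes that share 0 of its exonic bases, RP23-64D23.5 with 11.6 to 29.5 and RP23-64D23.6 with 12.5 to 24.4 normalized counts over the 12 animals. Of all 50-base windows of the annotated transcripts, 0 of Rtp1, Rtp2, Reep1, Ric8b and Omp occurred in a transcript of another gene, and for Stoml3 15 of 2099 did. Rtp1 and Rtp2, although related, therefore share 0 such windows with each other.

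Promoters of 4 of the 6 genes were matched in RefSeq (GRCm38.p6), each from 250 bases before to 50 bases after the start annotated there. They are shown because the 4 genes differ in how they vary over the animals below. The windows of Stoml3, Ric8b and Reep1 contain the GENCODE start of the gene. The window of Rtp2 does not, as it lies inside the GENCODE span, whose 5′ end is at 23932394. CpG dinucleotides are in capitals, and each sequence reads 5′ to 3′ on the strand of its gene.
Stoml3 (chr3:53488457-53488756, plus strand): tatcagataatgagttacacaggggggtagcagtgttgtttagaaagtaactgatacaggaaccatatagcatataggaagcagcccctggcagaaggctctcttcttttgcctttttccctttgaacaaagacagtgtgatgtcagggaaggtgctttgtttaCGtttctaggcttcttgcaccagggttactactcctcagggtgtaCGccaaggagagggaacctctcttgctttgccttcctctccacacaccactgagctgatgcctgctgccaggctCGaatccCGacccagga
Ric8b (chr10:84917363-84917662, plus strand): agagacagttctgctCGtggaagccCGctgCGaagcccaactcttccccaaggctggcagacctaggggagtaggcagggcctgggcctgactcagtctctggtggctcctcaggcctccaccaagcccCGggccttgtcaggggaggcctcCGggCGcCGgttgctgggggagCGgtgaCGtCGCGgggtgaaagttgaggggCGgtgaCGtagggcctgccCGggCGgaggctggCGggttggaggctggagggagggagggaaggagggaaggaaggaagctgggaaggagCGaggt
Reep1 (chr6:71707431-71707730, plus strand): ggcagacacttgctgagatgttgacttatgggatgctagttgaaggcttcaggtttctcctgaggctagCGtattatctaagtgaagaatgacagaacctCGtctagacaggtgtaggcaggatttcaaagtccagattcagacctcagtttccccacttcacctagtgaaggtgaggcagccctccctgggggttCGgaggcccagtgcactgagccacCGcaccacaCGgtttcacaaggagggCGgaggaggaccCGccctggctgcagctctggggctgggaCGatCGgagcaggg
Rtp2 (chr16:23930745-23931044, minus strand): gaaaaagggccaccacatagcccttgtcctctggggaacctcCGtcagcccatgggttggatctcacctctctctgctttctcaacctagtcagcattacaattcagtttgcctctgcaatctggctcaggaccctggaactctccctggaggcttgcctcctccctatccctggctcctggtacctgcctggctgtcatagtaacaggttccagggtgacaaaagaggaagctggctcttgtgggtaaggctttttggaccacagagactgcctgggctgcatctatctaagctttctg
The promoter of Ric8b held 17 CpG dinucleotides at a GC content of 68.3%, that of Reep1 9 at 56.7%, that of Stoml3 4 at 49.3% and that of Rtp2 1 at 54.0%. The median over 32851 promoters of the same length was 7, and 5.43% of promoters had fewer CpG dinucleotides than Rtp2. The palindrome TCCC and GGGA with any 2 bases between them, searched for on both strands as the site of the Olf/Ebf factors that are known for the Omp promoter, was found in 0 of these 4 windows and in 0.904% of all promoters. The homeodomain core TAATTA was found in 0 of the 4 windows and in 5.29% of all promoters. Neither result says anything about binding outside these letters and windows.

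Per kilobase of merged exons, Omp was the highest of the 6 genes and Reep1 the lowest. Omp stood at 29829 ± 1924 normalized counts per kb (SD, n = 12 animals), 2.18 times the level of Stoml3 at 13705 ± 1357. Rtp1 followed at 3547 ± 284, Ric8b at 3331 ± 292 and Rtp2 at 2919 ± 153, and Reep1 was at 381 ± 26.0, 7.67 times lower than Rtp2. The order of Rtp1 over Ric8b was found in 11 of 12 animals, but their ranges (3102 to 4006 and 2864 to 3976) overlapped. With the longest annotated transcript as the length, chosen after seeing the data, Ric8b stood at 4995 per kb and above Rtp1 at 3547. Every other neighbour in the order kept its place in all 12 animals.

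The first comparison asked whether the deletion of eB changed these genes. Of the 6 members, 0 passed the adjusted threshold of 0.05 in limma-trend over the 19100 genes tested, and 0 had an unadjusted p under it. The background was 0 genes passing (0%), while the unadjusted p was under the threshold for 5.64% of genes, 2.83% with the deletion higher and 2.82% with it lower. DESeq2 on the recovered reads called 9 genes over the whole table (0.044%), 0.0293% with the deletion higher and 0.0147% with it lower, and 0 of the 9 were members. The quasi-likelihood test of edgeR called 0 genes (0%), and 5.86% had an unadjusted p under the threshold, with 0 members among them. Of the 6 members, 5 had higher and 1 lower mean log2 values in the deletion, with a median difference of 0.07, beside a median of 0.0038 and 51.7% of genes higher over all genes tested.

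**Figure D1:**
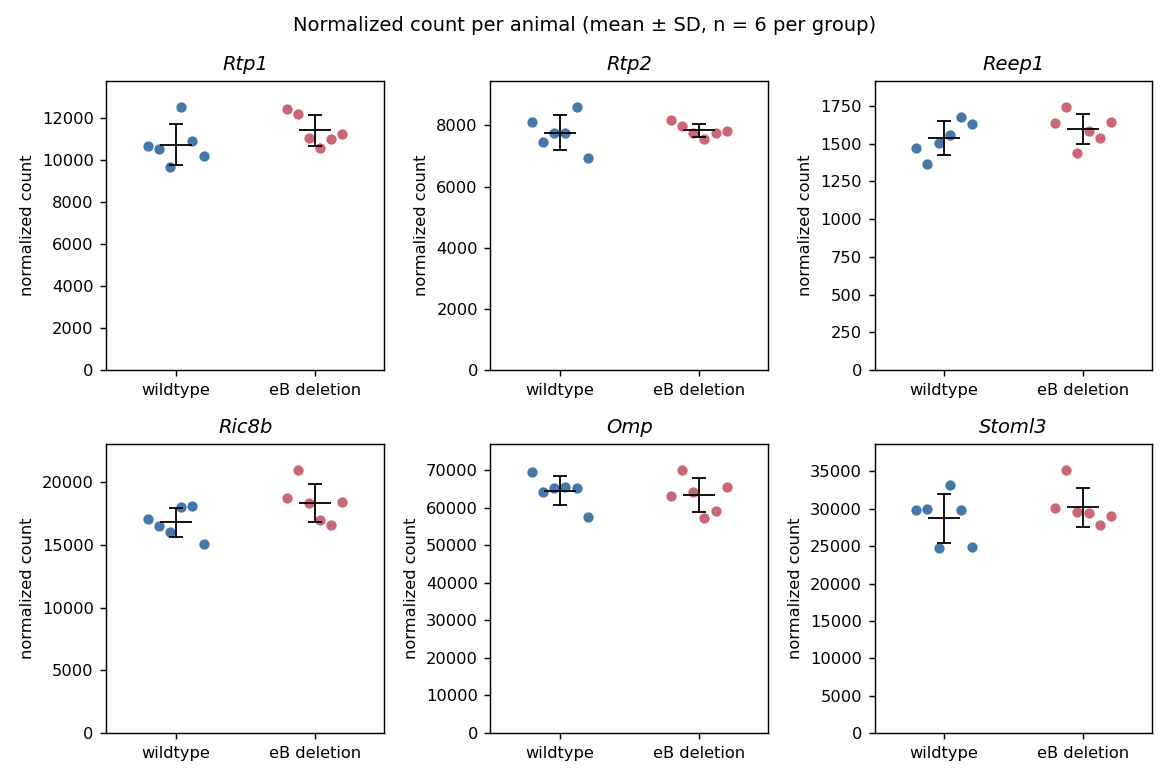
Normalized count of each of the 6 genes (y axis, starting at 0) in each animal, by genotype (x axis). Points are animals, and the bars give the mean ± SD of 6 animals; the genotypes overlap for every gene.

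The RTP proteins are receptor-transporting membrane proteins that bring odorant receptors to the cell surface, first found in heterologous cells. Rtp1 lay between 9677 and 12500 normalized counts in wildtype (median 10573) and between 10586 and 12415 in deletion animals (median 11128). The highest animal was wildtype 4 and the lowest wildtype 3, so that all deletion values fell inside the wildtype range. The log2 difference, deletion minus wildtype, was 0.09 ± 0.07 (SE; limma adjusted p = 0.921), and its 95% interval ran from -3.49% to 17.3%. Rtp2 lay between 6930 and 8593 in wildtype (median 7754) and between 7574 and 8191 in deletion animals (median 7791). Here too the wildtype range contained every deletion animal, and the SD was 566 in wildtype against 212 in the deletion. The log2 difference of Rtp2 was the smallest of the 6 in size, 0.02 ± 0.05 (SE; limma adjusted p = 0.989), with a 95% interval from -6.66% to 9.69%.

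Reep1 encodes a membrane-shaping protein of the endoplasmic reticulum that was found to aid the surface expression of odorant receptors in heterologous cells. It lay between 1366 and 1678 normalized counts in wildtype (median 1531) and between 1441 and 1740 in deletion animals (median 1608). The genotypes overlapped over most of their range, and 1 deletion animal, eB deletion 2, exceeded the highest wildtype animal. The log2 difference was 0.06 ± 0.06 (SE; limma adjusted p = 0.950).

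Ric8b encodes a guanine nucleotide exchange factor and chaperone of the olfactory G protein alpha subunit. It lay between 15102 and 18091 normalized counts in wildtype (median 16763) and between 16549 and 20964 in deletion animals (median 18393). Of the 6 deletion animals, 4 lay above the highest wildtype animal, and the other 2 (eB deletion 4 and 5) lay inside the wildtype range. This was the largest difference of the 6, 0.13 ± 0.07 on the log2 scale (SE; limma adjusted p = 0.892, unadjusted p = 0.094), with a 95% interval from -1.64% to 21.1%. In the authors' deposited table, Ric8b had an unadjusted p of 0.0387 and an adjusted p of 0.999, and the adjusted p of the 5 others was 0.999 as well. DESeq2 on the recovered reads gave Ric8b the same unadjusted p of 0.0387 (adjusted p = 0.999), and it was the 1 member under 0.05 there, against a background of 4.93% of the genes that pass the filter of the limma fit and 2.46% of all genes given a p.

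Omp, the olfactory marker protein gene, marks the mature sensory neuron, in which it is among the most abundant transcripts. It lay between 57448 and 69682 normalized counts in wildtype (median 65285) and between 57414 and 70076 in deletion animals (median 63780). The ranges were nearly the same, with wildtype 6 the lowest of the wildtype animals and eB deletion 4 the lowest of the deletion animals. Omp was the member with a lower mean in the deletion, at -0.03 ± 0.09 on the log2 scale (SE; limma adjusted p = 0.989; 95% interval -14.0% to 11.5%). Without 1 animal it ran from -0.064 (without wildtype 6) to -0.0028 (without eB deletion 4). Stoml3 encodes a stomatin-like membrane protein found in the cilia of olfactory neurons. It lay between 24710 and 33139 in wildtype (median 29854) and between 27852 and 35194 in deletion animals (median 29481). Wildtype 3 and wildtype 6 were the lowest animals, and eB deletion 2 was the highest. The log2 difference was 0.07 ± 0.09 (SE; limma adjusted p = 0.960; 95% interval -7.38% to 19.8%). This difference was 0.030 without eB deletion 2, 0.033 without wildtype 3, 0.035 without wildtype 6 and 0.12 without wildtype 4.

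Leaving out libraries moved several of these small differences. Without the 4 Gm10800-rich libraries the log2 difference was 0.084 for Rtp1, 0.037 for Rtp2, 0.043 for Reep1, 0.17 for Ric8b, 0.0065 for Omp and 0.12 for Stoml3, so that all 6 were higher in the deletion, and 0 passed in limma. The difference of Reep1 was 0.025 without wildtype 2, 0.033 without eB deletion 2 and 0.087 without eB deletion 3. That of Rtp1 was 0.13 without wildtype 4 (unadjusted p = 0.044, limma adjusted p = 0.765), and that of Rtp2 ran from -0.015 without wildtype 6 to 0.047 without wildtype 5.

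**Figure D2:**
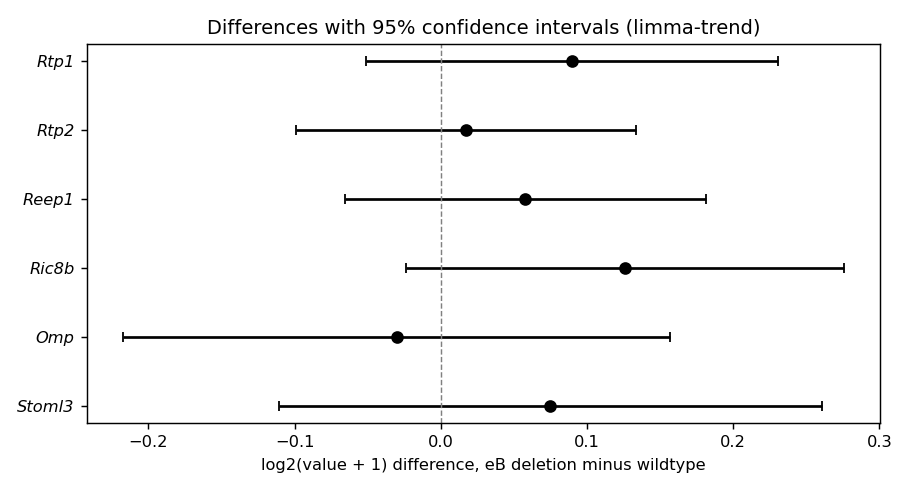
Difference of each gene between genotypes on the log2(value + 1) scale (x axis), points with 95% confidence intervals from limma-trend, 6 animals per group. Every interval spans 0, and Ric8b lies farthest from 0 at 0.13.

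The members differed in their spread over the 12 animals. The coefficient of variation was 5.25% for Rtp2, 6.45% for Omp, 6.84% for Reep1, 7.998% for Rtp1, 8.76% for Ric8b and 9.90% for Stoml3. Counting error alone corresponds to 0.396% for Omp to 2.53% for Reep1, from at least 947 reads per library, and the spread between animals also holds biological and library differences. The highest animal exceeded the lowest by 1.22 times for Omp and by 1.42 times for Stoml3.

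The levels were then set against Omp of the same animal, as a marker of mature neurons. Per 1000 Omp counts, Ric8b stood at 260 ± 14.1 in the wildtype group and at 290 ± 8.54 in the deletion group (SD over 6 animals). The wildtype animals ran from 245 to 277 (median 260) and the deletion animals from 279 to 299 (median 290), so that the groups did not overlap. Of the 19099 genes scaled in this way, 0.23% had groups that did not overlap, and 0.178% did so with the deletion higher. The log2 difference of Ric8b was 0.16 ± 0.07 (SE), with an unadjusted p of 0.034 and a limma adjusted p of 0.996. In limma the variance is moderated over genes, so this SE and p do not measure the spread of Ric8b alone. In that fit 0% of genes passed, and 4.18% had an unadjusted p under 0.05, 2.79% with the deletion higher and 1.39% with it lower. Over the 12 fits that left out 1 animal the difference ran from 0.14 to 0.18, and its unadjusted p from 0.028 to 0.078, 7 of them under 0.05. Without the 4 Gm10800-rich libraries it was 0.16 ± 0.09 (SE; unadjusted p = 0.099, limma adjusted p = 1.00).

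The other ratios overlapped between the genotypes. Rtp1 stood at 166 ± 15.6 per 1000 Omp counts in the wildtype group and 180 ± 10.01 in the deletion group, and Stoml3 at 445 ± 42.7 and 477 ± 25.8 (SD over 6 animals). For Rtp1 all 6 deletion animals exceeded the wildtype mean, but 1 of them exceeded the highest wildtype animal. Rtp2 stood at 120 ± 5.90 and 124 ± 7.52, and Reep1 at 23.9 ± 2.76 and 25.3 ± 1.71. All 5 ratios had a higher mean in the deletion, with log2 differences from 0.05 for Rtp2 to 0.16 for Ric8b. They share Omp as the denominator, whose own mean was lower in the deletion, and over all genes scaled to Omp 62.6% were higher, with a median of 0.034. The limma adjusted p of each of the 5 ratios was 0.996. Without the 4 Gm10800-rich libraries the log2 difference was 0.077 for Rtp1, 0.031 for Rtp2, 0.037 for Reep1 and 0.11 for Stoml3, against 0.12, 0.047, 0.088 and 0.11 in all 12 animals. Without 1 animal it ran from 0.087 to 0.16 for Rtp1, 0.030 to 0.074 for Rtp2, 0.055 to 0.14 for Reep1 and 0.059 to 0.14 for Stoml3.

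**Figure D3:**
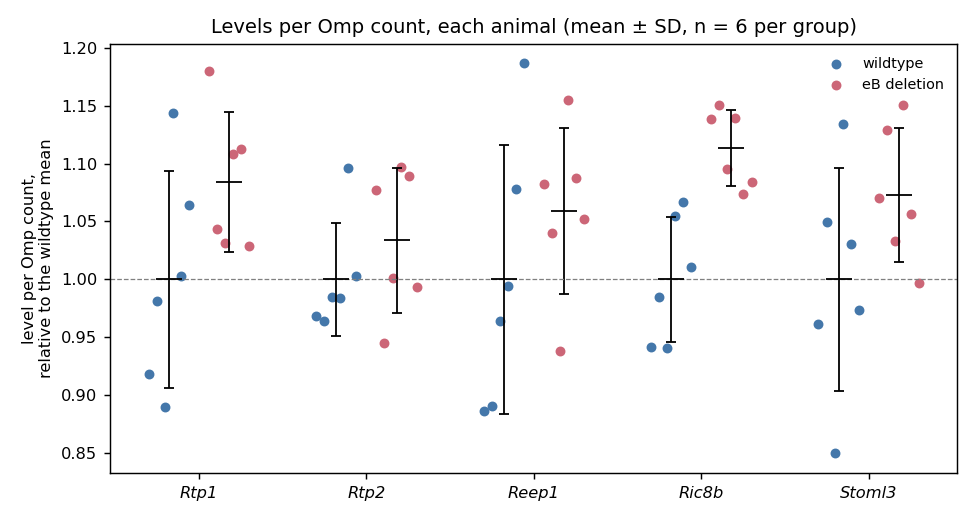
Level of 5 genes per Omp count in each animal, divided by the wildtype mean of that gene (y axis, not starting at 0), by gene (x axis) and genotype (colour). Bars give mean ± SD of 6 animals; the groups of Ric8b do not overlap, and those of the other 4 genes do.

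The second comparison concerned the total odorant receptor level of each animal. It ran from 114813 to 149832 normalized counts in wildtype (median 136920) and from 120552 to 142994 in deletion animals (median 130127). The lowest animals were wildtype 6 and wildtype 3, and the highest was wildtype 2, the library with 11.0% of reads on Gm10800. The group means were 133118 ± 13861 (wildtype) and 132083 ± 8497 (deletion; SD over 6 animals) and differed by -1034 ± 6637 (SE; exact permutation p = 0.872, two-sided, over 924 assignments). Its sign depended on single animals, and this total odorant receptor level per animal was higher in the deletion by 2308 without wildtype 2, by 1272 without eB deletion 3, by 809.8 without wildtype 5 and by 3268 without the 4 Gm10800-rich libraries. Per 1000 Omp counts, receptors stood at 2061 ± 184 in wildtype and 2093 ± 165 in deletion animals. On the log2 scale that ratio differed by 0.02 ± 0.07 (SE; exact permutation p = 0.745, adjusted p over both measures 0.872). That difference was negative when wildtype 3 or eB deletion 4 was left out.

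Stoml3 was the member that followed the total receptor level most closely. Over the 12 animals Pearson's r was 0.75 (permutation p = 0.0046) and Spearman's rho 0.86 (permutation p = 0.00079). Wildtype 6 and wildtype 3, the animals with the lowest receptor totals, also had the lowest Stoml3 apart from the order between them. These are the animals farthest from the median total, and without them r was 0.45 (permutation p = 0.190) while rho was 0.77, so that the size of r depended on them. Leaving them out also narrows the range of totals. Without the 2 libraries above 1% Gm10800 r was 0.82, and without any 1 animal it ran from 0.66 to 0.82. In the fit with genotype as a term, the slope of Stoml3 was 0.91 ± 0.32 (SE) log2 units per log2 unit of receptor total (unadjusted p = 0.011), which did not pass over all genes (limma adjusted p = 0.206). In that fit 0.848% of the 19100 genes passed, 0.126% with a positive and 0.723% with a negative slope, and 13.8% had an unadjusted p under 0.05, 5.05% with a positive and 8.72% with a negative slope. Of the 6 members 0 passed, and Stoml3 was the one under 0.05 before adjustment.

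Rtp2, Rtp1 and Ric8b had lower values of r with the receptor total, at 0.52, 0.51 and 0.51 (permutation p = 0.078, 0.090 and 0.094), and of rho, at 0.45, 0.36 and 0.42 (permutation p = 0.141, 0.247 and 0.175). Without wildtype 6 and wildtype 3 their r was 0.21, 0.14 and 0.07. Without wildtype 2, the animal with the highest total, it was 0.77, 0.70 and 0.71, and the r of Ric8b was 0.61 without eB deletion 3, each with a permutation p under 0.05. The share of all genes under 0.05 without those animals is not given here. Omp had an r of 0.43 (permutation p = 0.162) and a rho of 0.29 (permutation p = 0.369), with an r of 0.33 without wildtype 6 and wildtype 3. Reep1 had an r of 0.04 (permutation p = 0.895) and a rho of 0.18 (permutation p = 0.572), with an r of 0.09 without them. The limma adjusted p of the slopes of these 5 genes lay between 0.417 and 0.965. All points share the size factor of their library, and 6 such relations were computed.

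Wildtype 2, the library with the fewest reads and the most genes with a read, had the highest receptor total. It did not have the highest level of any member, and it had the lowest Reep1. Among the 8 libraries with little Gm10800, r with the receptor total was 0.90 for Stoml3 (exact permutation p = 0.0035), 0.79 for Rtp1 (exact permutation p = 0.023), 0.73 for Ric8b (exact permutation p = 0.038) and 0.71 for Rtp2 (exact permutation p = 0.015). For Omp it was 0.70 (exact permutation p = 0.054) and for Reep1 0.33 (exact permutation p = 0.413). In these 8 animals 0 genes of the whole table passed in limma. The share of all genes with an r this high in these 8 animals is not given here, so the permutation p-values have no background beside them. No correlation is given within the 4 Gm10800-rich libraries, which are fewer than the 6 animals set as the least for one. The part of Gm10800, of read depth and of the number of genes with a read in these relations was not tested. Within wildtype, r was 0.84 for Stoml3 (exact permutation p = 0.039, n = 6) and -0.37 for Reep1 (exact permutation p = 0.454). Within the deletion it was 0.67 for Stoml3 (exact permutation p = 0.132, n = 6) and 0.86 for Reep1 (exact permutation p = 0.035). For Rtp1, Rtp2, Ric8b and Omp, r was 0.50, 0.52, 0.72 and 0.55 within wildtype and 0.75, 0.65, 0.55 and 0.32 within the deletion, with exact permutation p from 0.108 to 0.536. The slopes of Reep1 in the genotypes were 1.12 ± 0.53 apart (SE; unadjusted p = 0.052, limma adjusted p = 1.00), and the unadjusted p of this difference was between 0.612 and 0.974 for the other members.

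**Figure D4:**
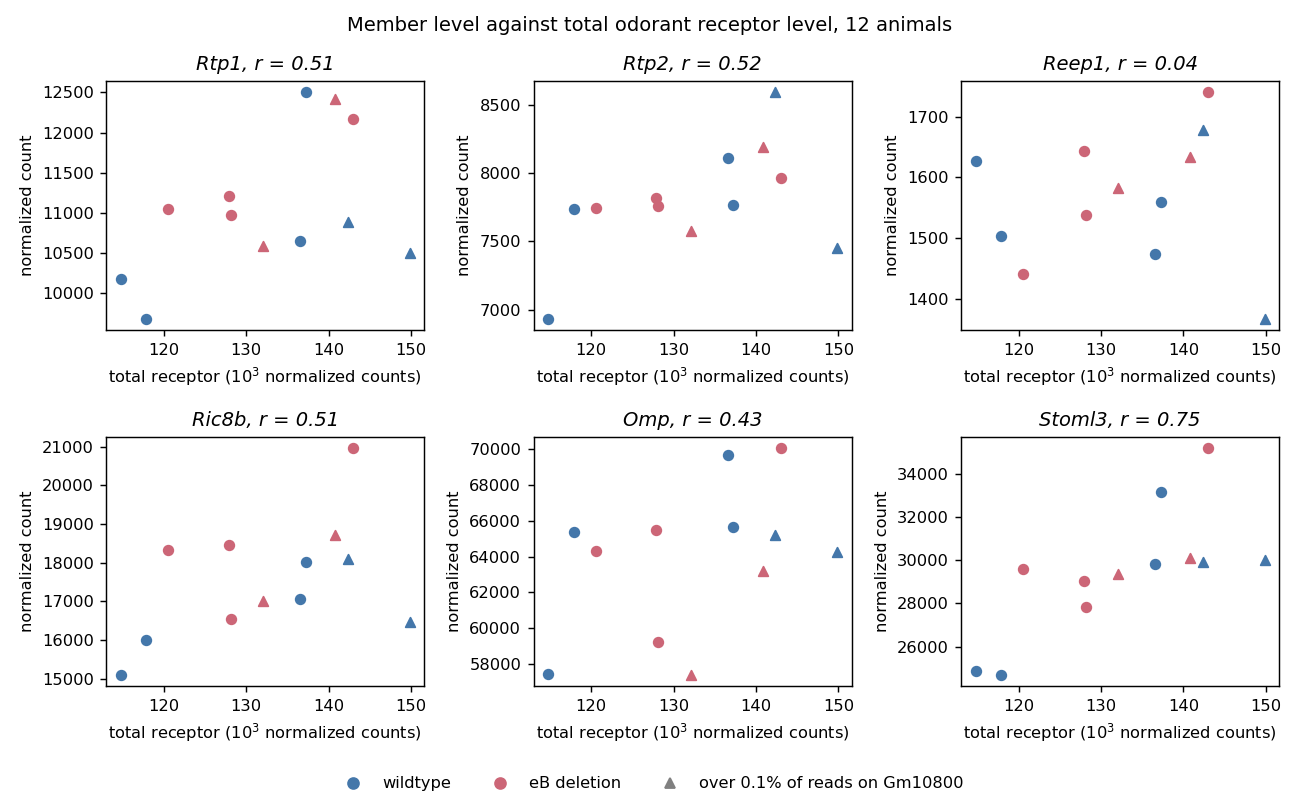
Normalized count of each gene (y axis) against the summed normalized count of all odorant receptor genes (x axis, in units of 1000), 1 point per animal, coloured by genotype, with triangles for the 4 Gm10800-rich libraries. Neither axis starts at 0; Stoml3 has the highest r of the 6 genes (0.75) and Reep1 the lowest (0.04).

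Markers of other cell types were set against the receptor total as well. Of the 5 markers of horizontal basal cells, the reserve stem cells, 1 had a positive r with it (median r = -0.49), and their summed level was 1356 to 2120 in wildtype and 1450 to 1770 in deletion animals. Of the 6 markers of ciliated respiratory cells 2 had a positive r (median -0.51; summed level 8797 to 11624 and 9436 to 11779), and of the 6 immune markers 0 (median -0.44; 2125 to 3352 and 2294 to 3425). None of the 8 progenitor markers had a positive r (median -0.25; 9154 to 11506 and 9660 to 11594), and 4 of the 11 markers of immature neurons had one (median -0.15; 37208 to 42291 and 37953 to 43747). The median was 0.10 for supporting cells (5 of 7 positive; 251769 to 331982 and 246568 to 310262), 0.11 for ensheathing glia (4 of 6; 3334 to 5101 and 3215 to 4214), 0.01 for Bowman's glands (3 of 5; 60427 to 157597 and 58936 to 140474) and -0.05 for red blood cells (1 of 5; 1259 to 2520 and 972 to 4104). Over all genes tested the median r was -0.04, and 46.3% were positive. Without the odorant receptor genes, which make up the total itself, the median over 18034 genes was -0.06 and 43.5% were positive. No marker of any list was at 0 in all animals. The r of the summed level with the receptor total changed without the 4 Gm10800-rich libraries. It went from -0.32 to 0.23 for immature neurons, -0.07 to 0.37 for glia and -0.40 to -0.62 for progenitors. For basal cells it went from -0.62 to -0.30, for respiratory cells from -0.59 to -0.29 and for immune cells from -0.58 to -0.39. For supporting cells it was 0.20 and 0.32, for Bowman's glands -0.11 and -0.29 and for red blood cells -0.03 and -0.11. The part of these cell types in the relations of the members was not tested.

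Among themselves, Stoml3, Ric8b and Rtp1 had the highest correlations. Ric8b and Stoml3 had an r of 0.84 over the 12 animals (permutation p = 0.0008) and a rho of 0.64 (permutation p = 0.028), and without eB deletion 2 and wildtype 6 r was 0.60. Rtp1 and Stoml3 had an r of 0.81 (permutation p = 0.0018) and a rho of 0.66 (permutation p = 0.022), and Rtp1 and Ric8b an r of 0.78 (permutation p = 0.0023) and a rho of 0.83 (permutation p = 0.0014). Without wildtype 4 and eB deletion 1, the r of these pairs with Rtp1 was 0.87 and 0.89. All 15 pairs had a positive r, with a median of 0.48, and the permutation p of r was under 0.05 for 6 of them, whose lowest r was 0.59. Over all other genes tested, the share with a positive r ran from 49.3% for Stoml3 to 54.4% for Reep1, and the share with an r at least that high from 2.38% for Omp to 5.00% for Reep1. All of these values share the size factors of the libraries. The other 3 of these were Rtp2 with Ric8b (r = 0.62, permutation p = 0.035; rho = 0.74, permutation p = 0.0080), Ric8b with Omp (r = 0.60, permutation p = 0.039; rho = 0.47, permutation p = 0.129) and Rtp2 with Omp (r = 0.59, permutation p = 0.044; rho = 0.53, permutation p = 0.080). Without its 2 farthest animals r was 0.49, 0.18 and 0.48 for these pairs, and without the 4 Gm10800-rich libraries it was 0.63, 0.70 and 0.82 (exact permutation p = 0.113, 0.052 and 0.0033). Rtp1 and Rtp2 had an r of 0.41 (permutation p = 0.189) and a rho of 0.62 (permutation p = 0.037). Reep1 and Omp were the pair with the lowest r, at 0.01 (permutation p = 0.984; rho = 0.14, permutation p = 0.669). Set against all genes, with either gene as the predictor, 0 of the 15 pairs passed (limma adjusted p from 0.363 to 1.00). The lowest was for Ric8b with Stoml3 as the predictor. A member set against itself, which it follows exactly, did not pass in these fits either. Its limma adjusted p was 0.139 for Stoml3, 0.357 for Rtp1, 0.384 for Ric8b, 0.684 for Rtp2 and 0.823 for Reep1. The count of 0 pairs therefore cannot show how closely the members follow each other. For Stoml3 as the predictor 0.0314% of genes passed, for Ric8b 0.0209% and for each of the 4 other members 0%. The same limit holds for these shares, which do not show that few genes follow a member.

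**Figure D5:**
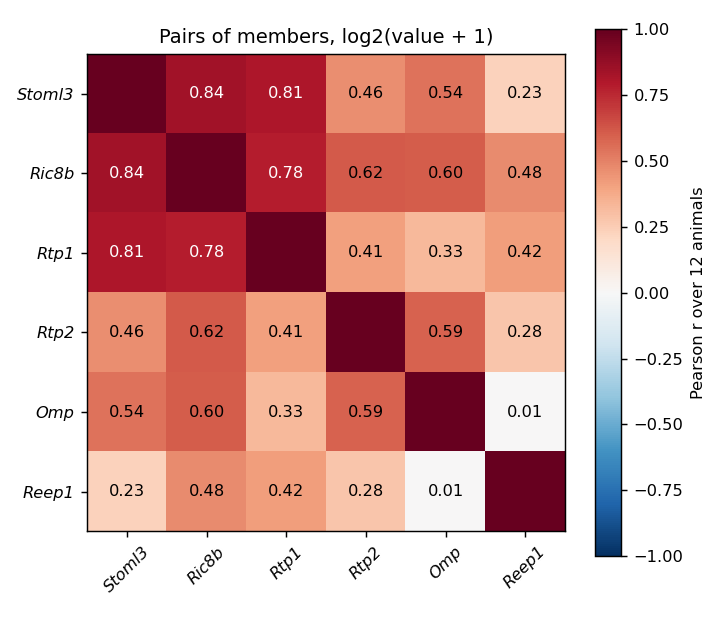
Pearson's r of log2(value + 1) over 12 animals for each pair of the 6 genes, on a colour scale from -1 to 1. Stoml3, Ric8b and Rtp1 form the block with r from 0.78 to 0.84, and Reep1 with Omp has the lowest r (0.01).

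The genes whose levels were most like each member were looked up among genes other than odorant receptors with a mean of at least 50, as a description over 12 animals. For Ric8b they were Nsg1 (r = 0.96, rho = 0.91) and Cnga2 (r = 0.94, rho = 0.87), which encodes a subunit of the olfactory cyclic nucleotide-gated channel. For Stoml3 they were Slc1a2, a glutamate transporter gene (r = 0.93, rho = 0.74), and Gnal, the gene of the olfactory G protein alpha subunit (r = 0.92, rho = 0.78). For Rtp1 they were Gpr63 (r = 0.91, rho = 0.94) and Hfe (r = 0.90, rho = 0.76). Rtp2 was closest to Eif4a2 (r = 0.94, rho = 0.85), a translation initiation factor gene, and to Zfp943 (r = 0.91, rho = 0.84). Omp was closest to Rpf2 (r = 0.87, rho = 0.76) and to the noncoding RNA RP24-388K7.1 (r = 0.84, rho = 0.76). Reep1 was closest to the pseudogene RP23-354L12.1 (r = 0.90, rho = 0.76) and the noncoding RNA RP23-22A15.2 (r = 0.85, rho = 0.80).

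Relatives of the transport genes and other genes of the pathway were examined from lists. Of the 6 tested relatives of the RTP and REEP families, 0 passed between genotypes in limma and 0 did so unadjusted. The mean was higher in the deletion for 2 and lower for 4, with a median of -0.06. The relatives with the highest mean normalized counts, not scaled to exon length, were Reep3 with 1261 (0.02 ± 0.05, SE), Reep5 with 894 (-0.02 ± 0.06), Reep6 with 228 (0.01 ± 0.14) and Reep4 with 127 (-0.09 ± 0.09). Rtp3 was at a mean of 1.33 and was not tested. Of the stomatin family, Stom stood at 44431 normalized counts and Stoml3 at 29467. These counts are not scaled to exon length and do not rank the 2 genes. The log2 difference was 0.08 ± 0.08 (SE) for Stom, -0.04 ± 0.06 for Stoml1 and 0.09 ± 0.07 for Stoml2, of which 0 passed.

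Among 13 tested genes of the G protein and the transduction cascade, 0 passed in limma, 1 had an unadjusted p under 0.05 and 9 were higher, with a median of 0.03. Gnal was at 0.06 ± 0.08 (SE), the G protein beta subunit gene Gnb1 at 0.02 ± 0.07, Cnga2 at 0.12 ± 0.07 and the adenylyl cyclase gene Adcy3 at -0.01 ± 0.08. The gene under 0.05, named after its values were seen, was the phosphodiesterase gene Pde4a at 0.23 ± 0.06 (SE; limma adjusted p = 0.682). Ric8a, the paralog of Ric8b, was not analysed here. The 14 markers of mature neurons overlap with this list in Gnal, Cnga2, Adcy3, Cngb1, Gng13 and Ano2. Of them 9 were higher and 0 passed in limma (1 at an unadjusted p under 0.05), with a median of 0.03, and 13 of 14 had a positive r with the receptor total (median 0.46). Their summed level was 124595 to 165520 normalized counts in wildtype and 130158 to 154770 in deletion animals. By mean count, not scaled to exon length, they were led by Gnal, the calcium-binding protein gene S100a5 (-0.35 ± 0.13, SE; limma adjusted p = 0.816), Cnga2 and Umodl1 (0.07 ± 0.07). The highest r among them was 0.82 for Ncam2, a neural adhesion gene, followed by 0.79 for the synaptic gene Snap25, both picked for their values. Between genotypes, 0 of the genes in the lists of immature neurons, progenitors, supporting cells, basal cells, respiratory cells, glia, immune cells, red blood cells and glands passed in limma, and their median log2 differences ran from -0.10 for progenitors to 0.05 for immune cells. Without the 4 Gm10800-rich libraries the median log2 difference of progenitor markers was -0.22, the median log2 difference of red blood cell markers -0.41, the median log2 difference of ensheathing glia markers -0.14, the median log2 difference of horizontal basal markers -0.14, the median log2 difference of Bowman gland markers -0.11 and the median log2 difference of respiratory cilia markers -0.066.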

How the data were processed

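Total RNA of the olfactory mucosa of 12 mice was made into stranded, ribosome-depleted libraries, per the labels' protocols. STAR 2.6.0, DESeq2 and GRCm38.p6 are named, per the submitters' processing notes. For the read counter, annotation and strand setting, nothing is stated in the sources used here. Each deposited column is a signal, and its values show gene counts scaled by a single size factor. Whole reads were recovered, since 100% of nonzero entries were multiples of 1 smallest step per column (relative tolerance 0.001). The log2 fold change and its standard error, the score (the test statistic), and the p-value and adjusted p-value are as the authors deposited them.

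The members and lists were chosen with earlier results of these data known. Genes at a value of at least 10 in 6 samples (19100) were tested on log2(value + 1) in limma-trend (version 3.58.1 under R 4.3.3), a scale that understates the change of low genes, with Benjamini-Hochberg adjustment at 0.05. edgeR 4.0.16 and DESeq2 1.42.0 on recovered reads were alternatives; on those reads edgeR called 0 genes and DESeq2 9. The limma procedure was run on simulated data, and the share of planted changes it recovered is not given here. Single values per animal were compared by exact permutation over 924 assignments, and correlations by 100000 resamples (all orders under 10 animals). Gene positions and exon lengths are from GENCODE M21 (44840 of 44930 genes matched). The named genes are all members, the 2 most like each, genes overlapping them, and up to 4 of highest mean per list described. Replicate numbers were not shown to pair the animals: same-numbered deviations correlated from -0.12 to 0.16. Model p-values set a difference or slope against the spread between animals, in limma with variances moderated over genes. An SE from limma can therefore differ from the spread of the single gene. For the genotype difference of Omp the SE was 0.088 in limma and 0.055 in DESeq2. Permutation p-values set the observed value against reassigned groups or shuffled orders of the animals.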

Additional observations from a re-analysis of the deposited data

Results flagged for a closer look

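Dixon's ratio set 1 animal apart from its group in 2 of the 26 groups of 6 animals examined. Chance gives about 1 in 20, or 1.3 groups. The first is Stoml3 in eB deletion 2, at 35194 normalized counts against 30108 for the next deletion animal and 27852 for the lowest. The same animal had the highest Omp, Ric8b and Reep1 of all 12. The second is Rtp2 in wildtype 5, at 132 per 1000 Omp counts against 121 for the next wildtype animal and 116 for the lowest. Wildtype 5 had 0.329% of reads on Gm10800.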

How the results depend on the processing

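Between genotypes, 0 of the 6 members passed under any of the alternatives run. Leaving out 1 animal moved the log2 difference of Rtp2, eB deletion minus wildtype, from -0.015 (without wildtype 6) to 0.047, and the log2 difference of Omp, eB deletion minus wildtype, was 0.0065 without the 4 Gm10800-rich libraries. The number of genes called over the whole table was 0 to 1 when 1 animal was left out, 9 with DESeq2 and 22 with DESeq2 on the filtered genes only, an alternative added after seeing the data. Replicate numbers were not shown to pair the animals. With the replicate block 0 genes passed, and the log2 difference of Ric8b was 0.13. TMM size factors moved the median of all genes from 0.0038 to 0.019 and the share higher to 57.4%.

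The difference in total odorant receptor level per animal, -1034, became 832 without class I genes, 543 with TMM size factors, 2308 without the 2 libraries above 1% Gm10800 and 3268 without all 4 rich ones, and 0.0095 percentage points as a share of reads. Leaving out 1 animal gave -4695 to 2308, and -0.014 to 0.060 for the log2 total receptor per Omp. The replicate block left it at -1034.

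The number of receptor relations called over the whole table was 162, against 4 with TMM size factors, 30 without the 2 libraries over 1% Gm10800 and 0 without the 4, and it was 30 to 177 without 1 animal (30 without wildtype 2, 37 without eB deletion 3, 56 without wildtype 6, 67 without wildtype 3, 97 without wildtype 5). The r of Rtp1 was 0.72 without the 2 libraries, 0.79 without the 4 and 0.58 with group means removed, that of Ric8b 0.72, 0.73 and 0.61, and that of Rtp2 0.79 and 0.71 without the 2 or the 4 libraries, each then with a permutation p under the threshold. The share of all genes under the threshold in those settings is not given here. Without 1 animal, r ran from 0.38 to 0.70 for Rtp1, 0.25 to 0.77 for Rtp2, 0.31 to 0.71 for Ric8b, 0.66 to 0.82 for Stoml3, 0.22 to 0.54 for Omp and -0.12 to 0.47 for Reep1. Among pairs, r of Rtp2 and Reep1 was -0.18 without the 4 libraries, and without 1 animal it ran from -0.073 to 0.39 for Reep1 and Stoml3 and from -0.28 to 0.14 for Reep1 and Omp. The cause of these shifts was not tested. Each member rested on at least 947 reads per library.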
